A study of Bos taurus with 8 samples.

Results

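Loci the size of an olfactory receptor gene were examined in RNA-Seq data of 8 cattle tissues. A member was a locus with a single transcript identifier on chromosomes 1 to 29 whose span was 900 to 1000 bases, and loci between 25.0 and 32.5 Mb of chromosome 23 were left out. The rule selected 861 of the 21719 loci with a single identifier on these chromosomes, out of 36801 loci in the table. Another 47 loci of the same size lay in the chromosome 23 window. The rule used only the number of identifiers, the span and the position, and no FPKM value. The table also holds loci without an identifier, so its spans may partly depend on the reads, which was not tested.

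Olfactory receptors are G protein-coupled receptors that detect odorants in the sensory neurons of the nasal epithelium, where each neuron usually expresses a single receptor gene. The coding sequence of such a gene is usually a single uninterrupted exon, and the genes stand in tandem clusters that grew by duplication. Bitter taste, vomeronasal and trace amine receptors have genes of similar build and size, so the span alone does not name a receptor. Transcripts of some olfactory receptors have long been known in mammalian testis and sperm.

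The study measured transcripts in *Bos taurus* to relate them to DNA methylation in the same kinds of tissue. Each tissue was represented by 1 library of total RNA, read from single ends. The labels name nucleated blood cells, whole testes, rumen, ileum, abomasum, frontal cortex, mammary/parenchyma and uterus intercaruncular, 8 tissues in all, and no nasal epithelium was among them. The abomasum is the glandular stomach, and the rumen is the largest forestomach. No treatment separated the tissues, and the RNA labels give neither age nor sex. In the study's list of the methylation samples, which were animals around a Hereford cow, the testes came from an adult male and the uterus and blood cells from adult females. In that list the mammary gland, cortex, abomasum and ileum came from juvenile females and the rumen from a male fetus. It is not certain that the RNA came from the same animals, and with 1 library per tissue, tissue and animal cannot be told apart, nor age and sex where these differed. Differences between tissues have no replicate check. In bulk tissue, fewer cells of a type and less RNA per cell cannot be told apart either.

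Levels were deposited as FPKM, fragments corrected for the length of the transcript and the total of the library. One read on a locus of 939 bases, the commonest span, corresponded to 0.0957 FPKM in rumen and up to 0.246 FPKM in mammary gland. A count of 0 allows up to 3 reads, which was 0.287 FPKM in rumen, 0.333 in abomasum, 0.371 in blood cells, 0.433 in testes, 0.440 in uterus, 0.481 in cortex, 0.595 in ileum and 0.738 in mammary gland. These floors, and the read numbers given for single loci, rest on an approximate model of the authors' software, and they cover counting error only. The identifiers of the members are not paired with gene symbols here, so loci are given by their position on the UMD3.1 assembly, and the tissue labels were not checked against marker genes.

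Most spans of the members were multiples of 3. Such a span is what a whole coding sequence without introns or untranslated ends gives. Of the 861 members, 760 (88.3%) had such a span, against 37.5% of all loci with a single identifier. The shares were 47.9% of the 117 loci of 800 to under 900 bases and 53.3% of the 169 loci of over 1000 to 1100 bases. The commonest spans were 939 bases (72 members), 936 bases (71), 942 bases (65) and 945 bases (61), and 939 bases hold 313 codons with the stop codon. The plot of locus numbers by span therefore has peaks spaced 3 bases apart. Coding and untranslated parts of the members were not examined, since no annotation of this assembly was used here.

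**Figure D1:**
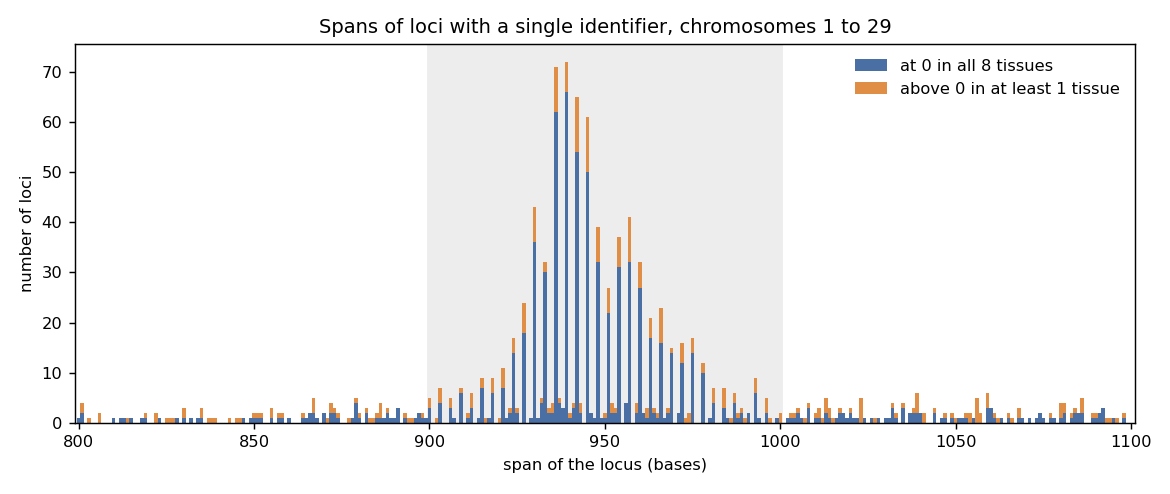
Number of loci with a single identifier (y axis) at each span in bases (x axis), without the chromosome 23 window. Blue marks loci at 0 in all 8 tissues and orange the other loci, and the grey band marks the 861 members, whose tallest bar stands at 939 bases with 72 loci.

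The RefSeq gene table of another assembly, ARS-UCD2.0, shows what genes of this size are called. No member identifier matched that table, so the comparison is by number only. It holds 954 protein-coding genes of 900 to 1000 bases, and 836 of them (87.6%) have an olfactory receptor symbol. It also holds 8 bitter taste receptor genes and 1 trace amine receptor gene of that size, and 74 genes without a descriptive symbol. Of its 1070 protein-coding olfactory receptor genes, 836 (78.1%) have that size, and 1034 (96.6%) stand next to another one. Chromosome 15 held 273 members and 290 RefSeq olfactory receptor genes of that size, chromosome 7 held 122 and 107, chromosome 5 held 76 and 64, chromosome 10 held 61 and 60, chromosome 3 held 43 and 52, chromosome 19 held 30 and 31, and chromosome 29 held 47 and 49. The RefSeq numbers include the chromosome 23 window, and on that chromosome 5 members stood against 53 receptor genes. The numbers were also far apart on chromosome 18, with 16 members and 1 receptor gene, on chromosome 2, with 12 and 0, on chromosome 14, with 10 and 1, on chromosome 13, with 8 and 1, and on chromosome 25, with 10 and 3. The members are therefore called loci of receptor size here, and not receptors.

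Most members had no reads in any tissue. An FPKM of 0 in all 8 libraries was found for 682 members, or 79.2% (95% Wilson interval over loci, 76.4 to 81.8), against a background of 25.0% of all 21719 loci. The interval treats loci as independent, although most members stood close to others of their size, and it holds no spread between animals. The neighbouring sizes lay between these values, with 64 of 117 loci (54.7%) of 800 to under 900 bases and 95 of 169 (56.2%) of over 1000 to 1100 bases at 0. Among loci that span at least 10 kb, 11.9% were at 0. Within 10 bases of the lower limit, 17 of 26 loci inside it and 10 of 14 loci outside it were at 0, and at the upper limit these numbers were 12 of 21 and 10 of 16. Members whose span is a multiple of 3 were at 0 in 81.1% of cases and the 101 other members in 65.3%. At the depths given above, a locus at 0 was not detectable, which does not show that its transcript is absent.

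Most members stood close to others of their size. A member was taken as clustered where at least 5 members started within 1 Mb, and overlapping windows were joined. By this rule 696 members (80.8%) lay in 24 clusters on 13 chromosomes, with a median distance of 26.4 kb from one member's start to the next (quartiles 14.6 and 49.3 kb). The same rule put 10 of the 117 loci of 800 to under 900 bases in clusters (8.55%), and 11 of the 169 loci of over 1000 to 1100 bases (6.51%). None of those lay within the bounds of the 24 clusters. Any of them in the chromosome 23 window could not do so, since the members leave that window out.

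The clusters held between 5 and 155 members, and the 5 largest held 388. Chromosome 15 alone carried 273 members (31.7%), in RefSeq the home of receptor families OR52 (72 genes of that size), OR5 (62), OR51 (48) and OR4 (41). OR51 and OR52 belong to class I, the receptor class shared with fish, and the other families named here belong to class II. The largest cluster, chr15:45175108-51779310, held 155 members, of which 131 were at 0. The next, chr15:79135786-81500951, held 71 with 67 at 0. On chromosome 7, where OR2 and OR7 are the largest RefSeq families, the cluster chr7:41276395-44522295 held 55 members with 46 at 0. The cluster chr5:57934910-60226830 held 54 with 49 at 0, on a chromosome where OR6 leads. The cluster chr10:25589275-28256440 held 53 with 45 at 0, on a chromosome where OR4 leads. In 4 clusters every member was at 0, the largest of them with 9 members on chromosome 8.

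Clustered members and the rest differed in their share at 0. Among the 696 clustered members 598 (85.9%) were at 0, and among the 165 others 84 (50.9%), a difference of 35.0 percentage points. The spans differed too, with a multiple of 3 for 93.7% of the clustered members and 65.5% of the others. Within the bounds of the clusters lay 368 other named loci of any other span, with a median of 1816 bases, and 194 of these (52.7%) were at 0. Chromosomes without a cluster varied widely in this share. Among those with the most members, 1 of 12 was at 0 on chromosome 2, 8 of 10 on chromosome 14, 3 of 10 on chromosome 25 and 3 of 8 on chromosome 13.

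**Figure D2:**
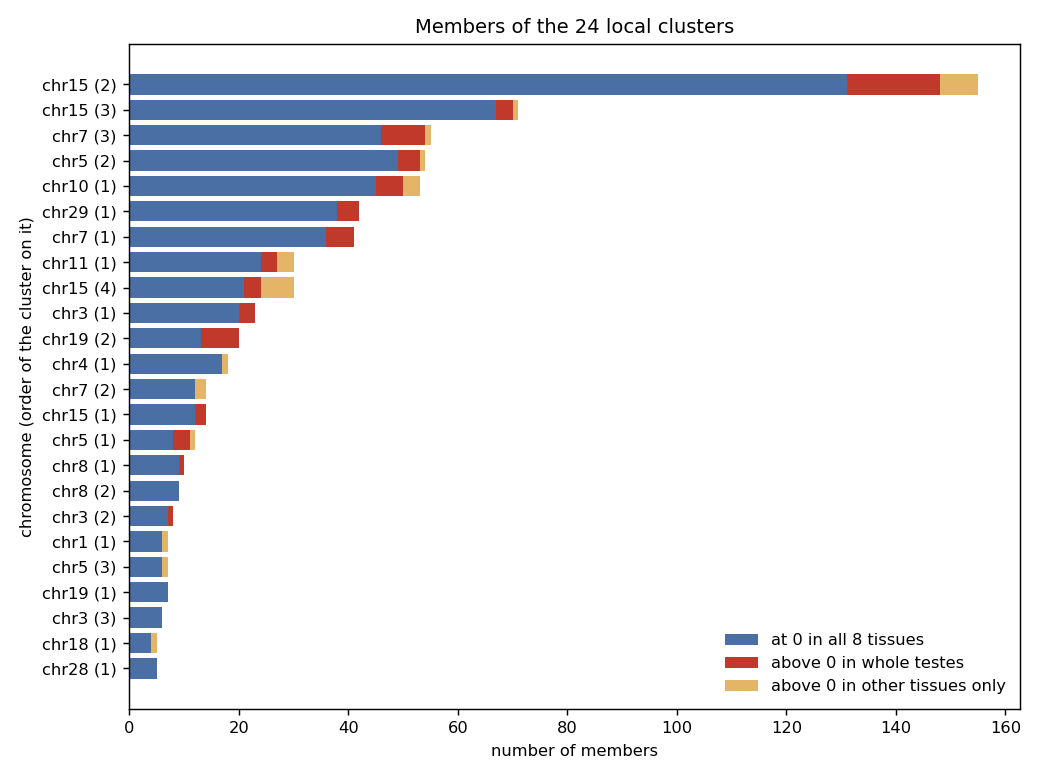
Number of members (x axis) in each of the 24 clusters, named by chromosome and, in brackets, by their order along it (y axis). Blue members were at 0 in all 8 tissues, red ones above 0 in whole testes and yellow ones above 0 in other tissues only. Red is present in 15 clusters.

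Clustered members were above 0 more often in testes than in any other tissue, as were all loci. Of the 98 clustered members above 0 in any tissue, 69 were so in testes. The same held for 14800 of all 16281 loci above 0, and for 155 of 174 other named loci within the cluster bounds. In whole testes 69 of the 696 clustered members (9.91%) had an FPKM above 0, against a background of 68.1% of all loci. The numbers in the other tissues were 17 in uterus (2.44%), 9 in ileum (1.29%), 8 each in cortex, mammary gland and blood cells (1.15%), 4 in rumen (0.575%) and 3 in abomasum (0.431%). These numbers are not corrected for scaled depth, which was 9535000 reads in testes. It was lower in mammary gland (5586000), ileum (6936000), cortex (8582000) and uterus (9371000), and higher in blood cells (11132000), abomasum (12379000) and rumen (14367000). Of the 98 clustered members above 0 anywhere, 82 (83.7%) were above 0 in a single tissue, against a background of 7.97% of the 16281 loci above 0. Of the 126 values above 0 at clustered members, 68 were under 1.5 reads. The contrast was not matched for level, so nothing is read from it. For 63 of the 82 (76.8%) that tissue was testes, against 58.0% of all loci above 0 in a single tissue. These 63 were counted only through testes, so no support is drawn from this contrast. Among the 174 other named loci within the cluster bounds that were above 0, 36 (20.7%) were so in a single tissue, and for 29 of these (80.6%) it was testes. In the other single-tissue cases among the clustered members it was uterus for 8 members, cortex and blood cells for 3 each, ileum for 2, and mammary gland, abomasum and rumen for 1 each. Only 6 clustered members were above 0 both in testes and elsewhere, and 29 were above 0 elsewhere while at 0 in testes. No clustered member was above 0 in more than 5 tissues.

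Other loci in the same stretches of genome were above 0 more often in every tissue, and they too were above 0 most often in testes. Of the 368 other named loci within the cluster bounds, 155 (42.1%) were above 0 in testes, against 113 in rumen (30.7%) to 123 in ileum (33.4%) in the other 7 tissues. The 165 members outside clusters were above 0 for 54 (32.7%) in testes, and for 26 (15.8%) in mammary gland and abomasum up to 33 (20.0%) in cortex.

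Counted together, 123 members (14.3%) were above 0 in testes, against a background of 68.1% of all loci. The other tissues were lower, as was their background. The members above 0 numbered 49 in uterus (5.69%, background 63.2%), 41 in cortex (4.76%, background 63.2%), 41 in ileum (4.76%, background 62.2%) and 39 in blood cells (4.53%, background 57.0%). They numbered 34 in mammary gland (3.95%, background 60.5%), 31 in rumen (3.60%, background 58.9%) and 29 in abomasum (3.37%, background 59.7%).

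**Figure D3:**
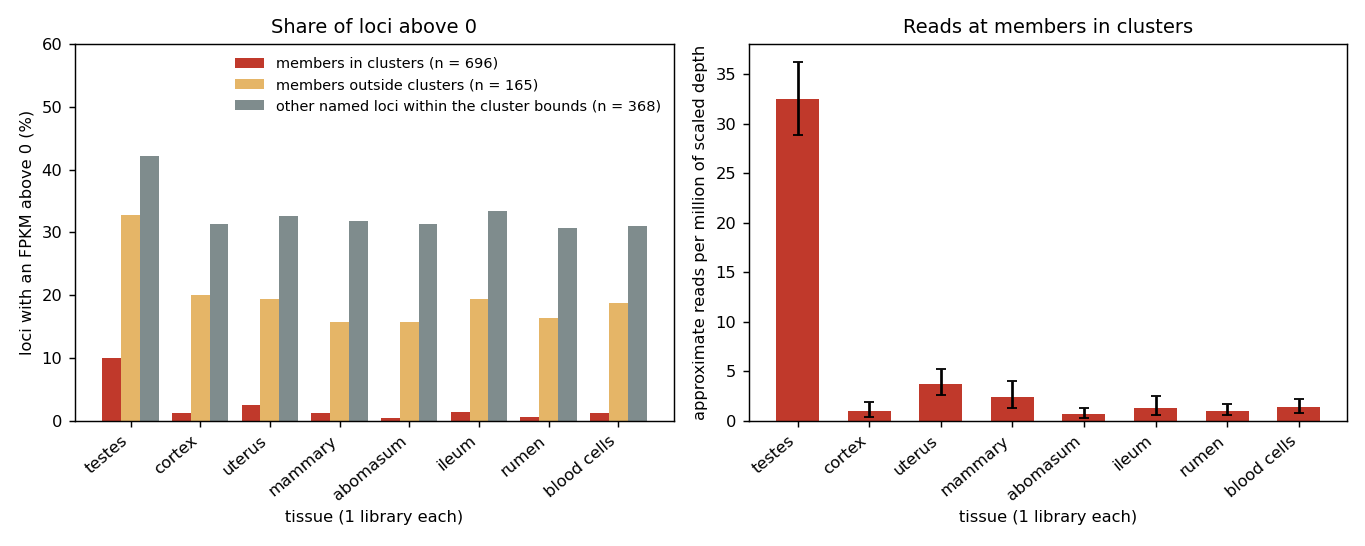
Left, percent of loci with an FPKM above 0 (y axis) in each tissue (x axis) for members in clusters, members outside clusters and other named loci within the cluster bounds. Right, approximate reads at the 696 clustered members per 1000000 reads of scaled depth, with exact 95% Poisson intervals for counting error only; testes stands at 32.4 and the other tissues at or below 3.74.

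The levels in clusters were low in every tissue. Summed over the 696 clustered members, the FPKM came to 44.4 for testes, 5.11 for uterus, 3.15 for mammary gland and between 0.881 and 1.79 for the other 5 tissues. In approximate reads the sum was 309 in testes, or 32.4 per 1000000 of scaled depth (exact 95% Poisson interval 28.9 to 36.2). In uterus it was 35.1 reads, or 3.74 per 1000000 (2.60 to 5.19), and in mammary gland 13.1 reads, or 2.34 per 1000000 (1.24 to 3.98). In the other 5 tissues it was 0.646 per 1000000 in abomasum to 1.32 in blood cells. The intervals of these 5 overlap each other and that of mammary gland, which also overlaps that of uterus. These intervals hold counting error only, with no spread between animals. Single loci carried much of some sums. The highest clustered locus had 11.0 of 14.4 reads in rumen, 6.12 of 13.1 in mammary gland and 32.9 of 309 in testes.

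Single clustered members rarely had more than a few reads. The median FPKM of the members above 0 in testes was 0.305, against 8.99 over all loci above 0 in that library. Over all tissues there were 126 values above 0 at clustered members, and 68 of them (54.0%) were under 1.5 reads. Of the 126 values 29 reached 3 reads, and 21 of these were in testes, 4 in uterus, none in cortex or ileum and 1 in each of the other 4 tissues. At 10 or more reads there were 8 values in testes and 1 in rumen. Near-identical receptor copies can share reads, and the way the authors' software divided such reads is not known here, so the level of a single clustered member is uncertain.

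The 8 clustered members with the highest levels were seen in testes and, with 1 exception, nowhere else. The highest was chr10:27230231-27231172, at 4.73 FPKM (32.9 reads) in testes and 0 in the other 7 tissues. The next was chr15:46603202-46604152 in the largest cluster, at 4.52 FPKM (31.9 reads) in testes only. These were also the only clustered members that met the rule for enrichment given below.

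A member 158 kb from the highest one, chr10:27071792-27072736, was at 3.85 FPKM (26.9 reads) in testes only, and 6 members stood between both. The locus chr15:79216406-79217317 was at 3.29 FPKM (22.0 reads) in testes only, and its direct neighbour 8.09 kb away, chr15:79208321-79209247, was at 1.07 FPKM (7.29 reads) in testes only. Another member of the largest cluster, chr15:47908633-47909598, was at 2.08 FPKM (15.0 reads) in testes only. The exception, chr15:82560717-82561670, was at 1.98 FPKM (14.0 reads) in testes and 0.378 FPKM (2.63 reads) in uterus. The testes value of this locus was above its floor and the uterus value under the floor of 3 reads.

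A small cluster on chromosome 19 had the largest share of members above 0 in testes. The cluster chr19:24470226-24802537 held 20 members in 0.332 Mb, and 7 of them were above 0, each in testes only. The next share was 3 of 12, in the cluster chr5:31483512-32264561, and in the largest cluster 17 of 155 were above 0 in testes. The 7 values were 1.80, 1.60, 1.36, 0.604, 0.201, 0.181 and 0.172 FPKM, and the last 3 are under the floor of 0.433. The first belongs to chr19:24801593-24802537 (12.6 reads), the next to chr19:24538976-24539905 (11.0 reads) and the third to chr19:24730810-24731754 (9.53 reads). These were not direct neighbours, since 9 and 4 members stood between them. RefSeq places families OR1 (14 genes of that size), OR4 (10) and OR3 (7) on this chromosome. The 7 members of that chromosome's first cluster, chr19:9209310-9352851, were all at 0. The difference between clusters was not tested, since members of 1 library are not replicates.

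Uterus was the tissue with the second largest number of clustered members above 0, and 5 of its 17 lay in the cluster chr15:82560717-84279377. That cluster held 30 members, 21 of them at 0, and 3 were above 0 in testes. Its 5 uterine values were 0.378, 0.362, 0.157, 0.152 and 0.135 FPKM, all under the floor of 0.440. The highest clustered value in uterus was in another cluster, at chr10:26916706-26917662, with 0.759 FPKM (5.30 reads). The same locus had 0.387 FPKM (3.57 reads) in abomasum, 0.210 in mammary gland and 0.164 in ileum, and 0 in testes, cortex, rumen and blood cells.

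Of the 98 clustered members above 0, 30 were highest in a tissue other than testes, and the 3 highest of these follow. The locus chr15:51023572-51024546 was at 1.44 FPKM (6.12 reads) in mammary gland, 0.203 in ileum and 0.0858 in rumen, and at 0 in the other 5 tissues. The locus chr4:107720864-107721805 was at 1.05 FPKM (11.0 reads) in rumen and 0 elsewhere, and it was the only one of 18 members of its cluster above 0. The locus chr15:46852254-46853210 was at 0.919 FPKM (7.62 reads) in blood cells, and between 0.124 and 0.320 in ileum, mammary gland, rumen and cortex. These loci were each at 0 in testes. The highest clustered value in cortex was 0.231 FPKM, at chr18:58529773-58530702, which was higher in uterus (0.636) and mammary gland (0.412). Each of the values in cortex was under its floor of 3 reads.

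**Figure D4:**
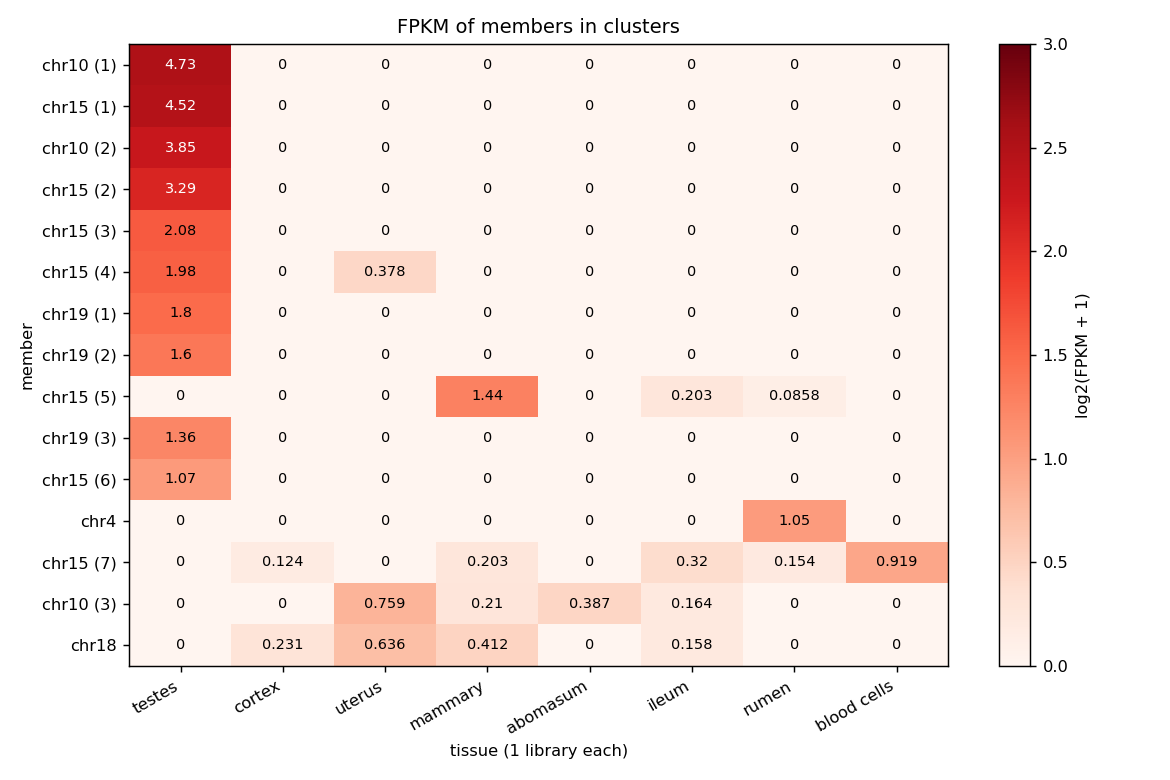
FPKM printed in each cell, and log2(FPKM + 1) as colour, for 15 clustered members (y axis, chromosome and order by highest FPKM on it) in each tissue (x axis). The rows are the 12 clustered members of at least 1 FPKM and the highest clustered member of each tissue; 10 rows have their highest value in testes, from 1.07 to 4.73 FPKM.

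Few members reached 1 FPKM. In at least 1 tissue 54 members (6.27%) did so, of which 12 were clustered and 42 were not. In testes 39 members (4.53%) reached it, 10 of them clustered, against a background of 56.9%. In cortex 20 members (2.32%) reached it, against 50.8%, in blood cells 18 (2.09%), against 44.1%, in mammary gland 17 (1.97%), against 50.2%, and in ileum 17 (1.97%), against 52.0%. In uterus, abomasum and rumen 15 members each (1.74%) reached it, against backgrounds of 50.7%, 50.1% and 47.6%. Outside testes, the clustered members among these were the mammary gland locus and the rumen locus named above.

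The 165 members outside clusters included loci of another character, with high levels in many tissues. Of these members, 14 were above 0 in all 8 tissues and 7 reached 1 FPKM in all 8, while none of the clustered members did either. Another locus lay within 5 kb for 33 of the 81 unclustered members above 0 (40.7%), for 6 of the 84 at 0 (7.14%) and for 11 of the 98 clustered members above 0 (11.2%). The library preparation did not mark the strand by its standard protocol, so reads of adjoining transcripts on opposite strands could not be told apart.

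The highest member of all was chr6:90673205-90674173 (ENSBTAT00000015874), at 1028 FPKM in blood cells. It was at 11.2 FPKM in ileum, 0.933 in abomasum, 0.820 in cortex and 0.612 in mammary gland, and at 0 in testes, uterus and rumen. No other locus lay within 5 kb of it. Its level in blood cells lay far above that in every other tissue.

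The next, chr18:24125366-24126333 (ENSBTAT00000034373), was at 806 FPKM in cortex, 718 in rumen, 158 in mammary gland, 82.5 in abomasum, 47.1 in uterus, 38.7 in ileum, 38.0 in blood cells and 28.3 in testes. The levels in cortex and rumen stood apart from the rest. The locus chr17:53142511-53143425 was the most even of the high members. It was at 527 FPKM in testes, 309 in rumen, 273 in blood cells, 251 in cortex, 238 in abomasum and in ileum, 154 in uterus and 150 in mammary gland, a 3.51-fold range. A locus on chromosome 25, chr25:28027757-28028658, was at 256 FPKM in testes and 57.6 in cortex, and between 4.65 and 22.1 in the other 6 tissues. It had 4 other loci within 5 kb.

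Testes had the highest level at 6 of the 12 highest unclustered members, the loci on chromosomes 17 and 25 among them. The locus chr22:60039709-60040651 was at 232 FPKM in testes and at 0 in the other 7 tissues, the largest value of any member seen in a single tissue. The locus chr1:117252852-117253808 was at 20.2 FPKM (144 reads) in testes and 0 elsewhere. The locus chr2:122032489-122033438 was at 63.8 FPKM in testes, 11.0 in cortex, 6.87 in rumen, and between 0.343 and 4.13 in the other 5 tissues. The locus chr7:82834996-82835982 was at 33.6 FPKM in testes and 27.0 in cortex, and at most 1.19 in the others.

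Rumen was highest at a pair of loci on chromosome 7. The locus chr7:39207845-39208828 was at 230 FPKM in rumen, 137 in cortex and 123 in testes, and between 25.8 and 78.7 in the other 5 tissues. The locus chr7:39875477-39876428 was at 126 FPKM in rumen and 55.6 in testes, and between 6.63 and 27.5 elsewhere. The locus chr10:4607626-4608560, which overlaps a locus without an identifier, was at 67.6 FPKM in abomasum, 48.8 in mammary gland, 48.4 in testes, 20.9 in uterus, 9.56 in cortex, 7.10 in ileum and 3.51 in rumen, with 2.21 in blood cells. The locus chr16:75539496-75540404 was at 16.9 FPKM in uterus, 11.2 in cortex and in mammary gland, 7.25 in ileum, 3.88 in rumen, 2.85 in testes, 2.13 in abomasum and 0.574 in blood cells. These levels were spread over most tissues, with no tissue at 0.

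**Figure D5:**
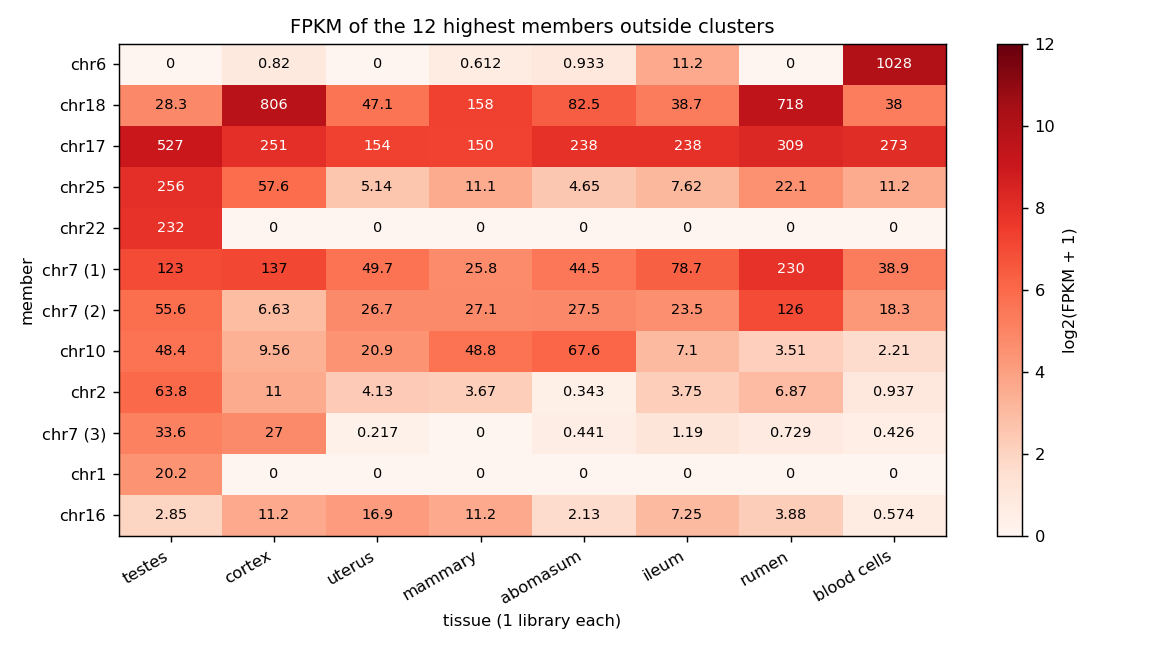
FPKM printed in each cell, and log2(FPKM + 1) as colour, for the 12 unclustered members with the highest FPKM (y axis, chromosome and order by highest FPKM on it) in each tissue (x axis). The top row reaches 1028 FPKM in blood cells, and the chromosome 17 row lies between 150 and 527 FPKM in every tissue.

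Enrichment required an FPKM of 1 or more in the tissue, and a value of FPKM + 1 that was 5 or more times the value in the tissue ranked next. A locus therefore needed at least 4 FPKM to be called, which 2 clustered members reached. In testes 8 members (0.929%) were enriched, against a background of 6.36% of all loci. The number was 26 at 2-fold, 2 at 10-fold, 23 with 0.1 in place of 1 added to the FPKM, and 13 without the cortex library. The 8 were the 2 clustered members on chromosomes 10 and 15 and the chromosome 22, 2 and 1 loci given above, and 3 further unclustered loci at 0 outside testes. Those were chr25:27836993-27837967 at 6.22 FPKM, chr1:109550310-109551293 at 5.05 FPKM and chr2:107981292-107982291 at 4.50 FPKM. In cortex 1 member was enriched (background 2.39%), chr2:132691772-132692743, at 16.6 FPKM in cortex and 0 elsewhere. In blood cells 2 members were enriched (background 0.879%), the chromosome 6 locus and chr29:46969455-46970420, which was at 5.91 FPKM there and 0 elsewhere. No member was enriched in uterus (background 0.382%), mammary gland (0.226%), abomasum (0.401%), ileum (0.414%) or rumen (0.778%).

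Each of the 179 members above 0 was also assigned to the tissue of its highest FPKM. Testes took 102 of them (57.0%), 68 clustered and 34 not, against a background of 31.1% of all loci above 0. Of the 179, 86 were above 0 in testes only and so counted at all only through that tissue, and no support is drawn from the contrast. Among the 54 members of at least 1 FPKM in some tissue, testes was the highest for 28. The same share over all loci of at least 1 FPKM was not computed, so nothing is read from this number. Of all 179, uterus took 18 (10.1%, background 7.83%), blood cells 16 (8.94%, background 14.5%), cortex 11 (6.15%, background 15.7%) and rumen 10 (5.59%, background 11.7%). Ileum took 9 (5.03%, background 4.94%), abomasum 8 (4.47%, background 9.25%) and mammary gland 5 (2.79%, background 5.01%). Of the 98 clustered members testes took 69.4%, of the 81 others 42.0% and of the 174 other named loci within the cluster bounds 34.5%. Among the clustered members uterus came next after testes with 13, and among the others blood cells came next with 12.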

How the data were processed

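RNA-Seq levels were measured in 8 cattle tissues, with 1 library per tissue, whose tissue was taken from its label. The authors aligned filtered single-end reads to UMD3.1 with TopHat2 2.0.13 and computed FPKM with Cufflinks, which scales libraries to each other. The deposited columns of fold changes, test statistics, p-values and q-values hold the authors' own comparisons and were not used. Members were selected by span and position, and starts are given 1-based. Their rule and the lists here were chosen with earlier results of these data known. Reads were recovered approximately from the FPKM steps of unnamed loci of 88 to 130 bases, with fragments of mean 200 and SD 80 bases and at least 87 bases. The scaled depth taken was the smallest at which at least 95% of these loci had whole reads within 0.03. The shares reached, 95.3% to 97.2%, follow from that rule and do not check the model. At clustered members the lowest value above 0 was 0.665 reads, so read numbers there are not whole. Scaled depth was lowest in mammary gland (5586000 reads) and highest in rumen (14367000). It is not the number of mapped reads, and reads carry no molecular identifiers. No test was run. Loci were named by fixed rules: the 5 largest clusters, clustered members of at least 1 FPKM, the 12 highest unclustered members, the highest member of each tissue, and the loci next to the span limits. The enriched members and the single loci of the chromosome 19 and 15 clusters beyond these were chosen after their values were seen. Identifiers are printed for 2 members. Python 3.11.15, pandas 2.3.3, NumPy 2.4.6, SciPy 1.17.1 and matplotlib 3.10.9 were used, and the scripts were tested on simulated data.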

Additional observations from a re-analysis of the deposited data

Results flagged for a closer look

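Loci without an identifier were outside the comparisons above, and 273 of them had the same span of 900 to 1000 bases on the same chromosomes. Many carried at least 3 approximate reads, the limit that a count of 0 allows. Such loci may have entered the table only because reads were found there, so nothing is read from these numbers. Their number was 168 in testes, 145 in cortex, 134 in uterus, 109 in rumen, 106 in abomasum, 106 in blood cells, 96 in ileum and 81 in mammary gland. Of the 273, 5 lay within the bounds of the 24 clusters.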

How the results depend on the processing

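No paired analysis was possible because no tissue had more than 1 library, so that nothing was tested. The share of members at 0, 79.2%, was 82.5% when under 1 read counted as 0, 90.2% when under 3 reads did (chosen after seeing the data), 82.8% for spans of 920 to 960 bases and 73.2% for 800 to 1100 bases. Leaving out each library gave 79.4% to 89.2%, the highest without testes. The difference between clustered and other members fell to 22.998 points with clusters of at least 10, and was 30.1 to 34.8 without each library. Members reaching 0.1 FPKM instead of 1 FPKM numbered 123 in testes, 49 in uterus, 41 in cortex, 41 in ileum, 39 in blood cells, 34 in mammary gland, 29 in abomasum and 28 in rumen, and at 5 FPKM 16, 9, 12, 10, 9, 8, 6 and 7 in the same order. Enriched members in testes numbered 26 at 2-fold, 2 at 10-fold, 23 with a pseudocount of 0.1, and 8 to 13 when another library was left out, 13 without cortex. In cortex these were 4 at 2-fold, 3 with the smaller pseudocount and 1 to 2 without a library (2 without testes or rumen). Mammary gland had 1 under each of 2-fold and the smaller pseudocount, rumen 2 and 1, blood cells 1 at 10-fold, and ileum 0 to 1, with 1 without blood cells. Among members of at least 1 FPKM, the highest tissue was testes for 28, cortex 6, uterus 1, mammary gland 1, abomasum 3, ileum 1, rumen 5 and blood cells 9. Alternatives for clustered members above 0 were chosen after seeing the data. At 2 reads or more the number was 36 in testes, 6 in uterus, 2 in abomasum, 0 in cortex and ileum, and 1 in mammary gland, rumen and blood cells. Without the largest cluster it was 4 in mammary gland, 5 in ileum and 2 in rumen, and with 2 Mb windows 5 in abomasum. Testes had the highest number of all tissues in each of the 8 settings of this count, the 5 of members expressed, the 4 of enrichment that kept every library and the 2 of the highest tissue. Among all loci testes also led in the main setting of each of these counts. The number of members in clusters stayed within 1.5 times in 6 of 6 alternatives. Limits are the single library per tissue, ages and sexes that the RNA labels do not give, loci without symbols, and low reads that near-identical copies may share.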
